A study of Mus musculus with 6 samples.

Results

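The 10 genes described here move iron and heme through a macrophage: the ferritin subunits Fth1 and Ftl1, the ferritin adaptor Ncoa4, the iron exporter Slc40a1 (ferroportin), the transferrin receptor Tfrc, the iron transporters Slc11a2 and Slc11a1, the heme-degrading enzyme Hmox1, and the heme transporters Slc48a1 and Slc46a1. They were chosen by symbol, and all 10 were found among the 25509 genes counted. All 10 also passed the filter on low counts, which left 13256 genes in the tests. The study sequenced poly-A RNA of peritoneal macrophages from JWT (Tg-ACE) mice, which overexpress angiotensin-converting enzyme (ACE), and from WT mice, with 3 libraries per genotype. Both genotypes are on the C57BL/6 strain, which carries a Slc11a1 allele of impaired function. In both, thioglycollate had been injected into the peritoneum, where it provokes an influx of macrophages; cells were taken on day 4 and enriched on a Percoll gradient, and those that adhered within 2 h were lysed. The labels give neither the promoter that drives ACE nor the age of the mice, and do not say whether each replicate is a mouse of its own. The p-values therefore reflect how far these libraries scatter, which may be technical scatter.

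The sample descriptions carry a second division, an experiment code whose meaning the labels do not give. Replicate 1 of each genotype is Exp-156 and replicates 2 and 3 are Exp-156b. Libraries held 24294300 to 28120400 expected counts, and 3 counts correspond to between 0.105 and 0.123 counts per 1000000 (CPM), a limit of counting error only. The first principal component took 77.2% of the variance and separated the codes. Xist RNA, which marks female cells, was at most 0.53 CPM in Exp-156 but 327.3 to 455.1 CPM in Exp-156b. The Y-linked Ddx3y was 47.8 to 51.4 CPM in Exp-156 but at most 0.11 CPM in Exp-156b. Code and sex therefore cannot be told apart. Ace stood at 100.4, 25.7 and 31.8 CPM in Tg-ACE replicates 1 to 3, against 16.7, 7.61 and 11.6 CPM in WT.

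Macrophages recycle iron. They take up senescent red cells and other heme-bearing debris, carry heme out of the phagosome, open the ring with heme oxygenase and then either store the iron in ferritin or release it through ferroportin. Cells tune this balance largely after transcription: when iron is scarce, iron regulatory proteins bind a hairpin called the iron-responsive element, which blocks translation when it lies before the coding sequence, as in ferritin mRNA, and protects the mRNA from decay when it lies after it, as in transferrin receptor mRNA. Transcription adds a further layer, in which NRF2 raises and BACH1 represses heme oxygenase, ferritin and ferroportin genes.

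Because this hairpin is what several of the 10 genes share beyond their names, the untranslated regions of the GENCODE vM21 transcripts (GRCm38) were searched on the mRNA strand for the loop CAGTGN, flanked by an upper stem of 5 pairs with an unpaired C below it on the 5′ side, where all 5 upper pairs and at least 3 of 5 lower pairs could form. Matches lay in Fth1, Ftl1, Slc40a1 and Tfrc, 4 of the 10 genes, against 45 of 21901 protein-coding genes (0.205%). Ferritin and transferrin receptor mRNAs are known carriers of the element, and the genes were chosen for iron handling. The count was thus largely set in advance and is a description, not an enrichment found here. The windows of 27 bases are given 5′ to 3′ as DNA letters, with the loop in capitals, to show how nearly alike the ferritin hairpins are and how the transferrin receptor repeats its own.
Fth1, before the coding sequence: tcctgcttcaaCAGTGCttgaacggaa
Ftl1, before the coding sequence: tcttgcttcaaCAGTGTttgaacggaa
Slc40a1, before the coding sequence: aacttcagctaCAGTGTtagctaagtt
Tfrc, after the coding sequence, element 1: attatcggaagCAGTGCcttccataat
Tfrc, after the coding sequence, element 2: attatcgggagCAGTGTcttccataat
Tfrc, after the coding sequence, element 3: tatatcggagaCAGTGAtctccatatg
Tfrc, after the coding sequence, element 4: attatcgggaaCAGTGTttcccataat
A match describes the letters and not a site in use, and no match says only that this strict pattern is not in the annotated sequence. Among the other iron genes listed for this work, Alas2 held a match, and that gene stood at or below 0.163 CPM in every library.

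**Figure D1:**
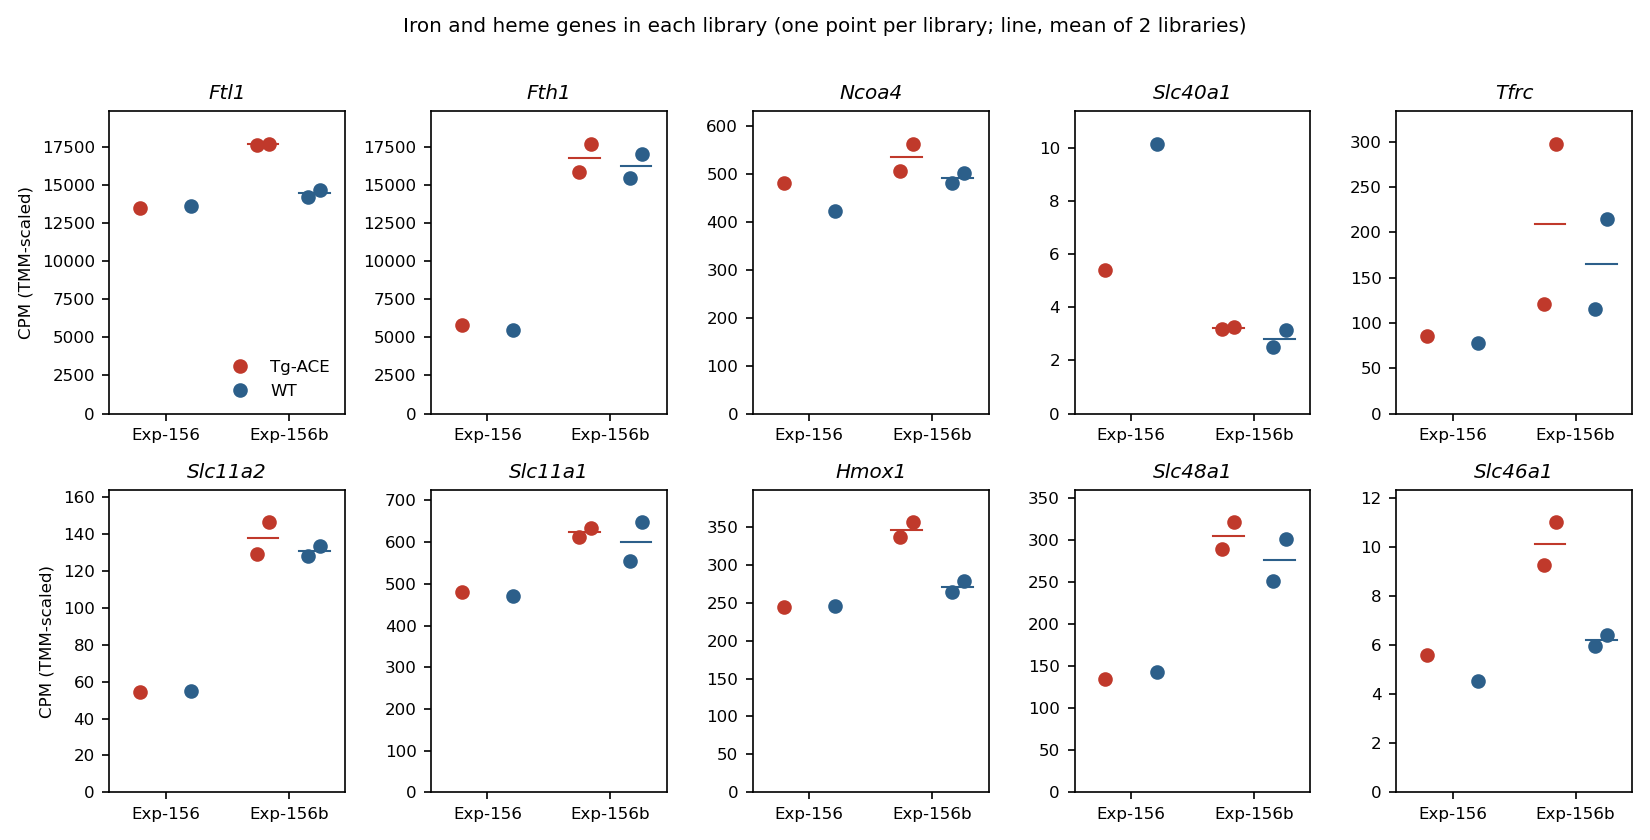
CPM (y axis, TMM-scaled, from 0, separate scale per gene) of the 10 genes in each of the 6 libraries, Exp-156 left and Exp-156b right, with Tg-ACE in red and WT in blue; lines mark means of 2 libraries. For 9 genes both Exp-156 libraries lie below all 4 Exp-156b libraries, and for Slc40a1 both lie above. For Ncoa4 the nearest libraries nearly tie, at 482.30 CPM in Exp-156 and 482.38 CPM in Exp-156b.

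Storage genes dominated. Scaled to the length of the annotated exons, mean levels over the 6 libraries were 11360 CPM per kilobase for Ftl1 and 3714 for Fth1, then 164.1 for Hmox1, 153.0 for Slc11a1, 87.5 for Slc48a1, 52.7 for Ncoa4, 24.6 for Tfrc, 16.9 for Slc11a2, 2.32 for Slc46a1 and 0.51 for Slc40a1. In that order the ranges over libraries overlapped between Hmox1 and Slc11a1, between Slc48a1 and Ncoa4, between Ncoa4 and Tfrc, and between Tfrc and Slc11a2, and were apart for the other neighbours. The length is the union of all annotated exons, retained introns included, which understates the level of genes with long rare isoforms such as Slc40a1 and Ncoa4. Slc40a1 was counted 63 to 249 times per library and Slc46a1 111 to 268 times. Per kilobase Slc40a1 came below Slc46a1, but before scaling to length it was the higher in Exp-156, at a mean of 7.78 CPM against 5.07 CPM for Slc46a1.

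Between genotypes, none of the 10 genes passed. In bulk RNA, fewer cells of a type and less RNA per cell cannot be told apart, which holds for all comparisons here. The test was edgeR's quasi-likelihood test in a fit on genotype and experiment code, with Benjamini-Hochberg adjustment over all genes at 0.05. It called 0 of the 10, where 0.0151% of all tested genes were called. Those were 2 genes, both lower in Tg-ACE, and 0 genes were called higher. Ace, the overexpressed gene, was thus not called either, so the lack of a call does not show the lack of a difference. At an unadjusted p under 0.05 there were 2 of the 10, Hmox1 and Slc46a1, beside 6.49% of all genes. DESeq2 called 0 of the 10. In 9 of 10 the log2 fold change was above 0 (48.1% of all genes), with a median of 0.11 against -0.01 over all genes. The sign of the difference was the same within Exp-156 and within Exp-156b for 5 of the 10, and the share over all genes was not counted. Where it differed, the Exp-156 value, from 1 library per genotype, was near 0 for Hmox1 (-0.008), Ftl1 (-0.014) and Slc11a2 (-0.020). It was -0.09 for Slc48a1 and -0.90 for Slc40a1. The groups of 3 overlapped in all 10, where 4.78% of all genes had groups that did not (2.26% higher and 2.52% lower in Tg-ACE).

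The ferritin subunits form the shell that stores iron, the heavy chain Fth1 oxidizing it and the light chain Ftl1 aiding its mineralization. Fth1 (ENSMUSG00000024661.6, chr19:9980598-9985098, forward strand) stood at 5817, 17704 and 15851 CPM in Tg-ACE replicates 1 to 3, against 5488, 17004 and 15440 CPM in WT. Each Tg-ACE library lay near the WT library of its own code, and both replicates 1 were far below the rest. The Tg-ACE minus WT log2 fold change was 0.06 (SE 0.09, 95% interval -0.14 to 0.26, edgeR adjusted p = 0.914).

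Ftl1 (ENSMUSG00000050708.14, chr7:45457944-45459884, reverse strand) stood at 13482, 17706 and 17638 CPM in Tg-ACE, against 13609, 14211 and 14688 CPM in WT. Within Exp-156b both Tg-ACE libraries were above both WT libraries, and within Exp-156 the libraries nearly coincided. The log2 fold change was 0.19 (SE 0.09, interval -0.03 to 0.40, edgeR adjusted p = 0.795). Of the stretches of 75 bases in Ftl1 transcripts, the read length, 39.9% also occur in the counted gene Gm10116 (Ftl1-ps1 in the annotation), whose counts were 2.12% to 2.88% of those of Ftl1, so the split between them is uncertain. With both counts summed the calls of the 10 genes did not change.

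Ncoa4 carries ferritin to the lysosome for iron release. It stood at 482.3, 564.2 and 508.0 CPM in Tg-ACE, against 422.8, 482.4 and 502.1 CPM in WT, a log2 fold change of 0.15 (SE 0.07, edgeR adjusted p = 0.795). The gene (ENSMUSG00000056234.14, chr14:32159865-32179855, forward strand) shares 16.9% of its 75-base stretches with Gm6768, counted at 2.33% to 4.68% of its level. Within each code Tg-ACE was the higher, by 0.19 on the log2 scale in Exp-156 and 0.12 in Exp-156b.

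Slc40a1, the only known cellular iron exporter, was the one member whose log2 fold change lay below 0. It stood at 5.40, 3.19 and 3.25 CPM in Tg-ACE, against 10.2, 3.13 and 2.51 CPM in WT. Both replicates 1 were above all other libraries, WT the higher of the pair, and WT replicate 3 was the lowest of the Exp-156b libraries. The log2 fold change was -0.22 (SE 0.25, interval -0.81 to 0.36, edgeR adjusted p = 0.886), but the difference of mean log2 CPM was -0.90 in Exp-156 and 0.20 in Exp-156b. The fitted value was 0.19 when either replicate 1 was left out, as such a fit reads genotype from the Exp-156b libraries alone. The gene (ENSMUSG00000025993.10) lies at chr1:45908068-45926523 on the reverse strand.

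Tfrc imports transferrin-bound iron. It stood at 85.2, 297.9 and 121.3 CPM in Tg-ACE, against 77.9, 115.6 and 214.7 CPM in WT. One library of each genotype was high, Tg-ACE replicate 2 and WT replicate 3. Those same libraries had the largest share of mitochondrially encoded counts, 3.20% and 3.04%, against 1.98% in Tg-ACE replicate 3 and 1.87% in WT replicate 2, and the part of this in the result was not tested. The coefficient of variation among the 4 Exp-156b libraries was 46.2%, the largest of the 10 genes, and the log2 fold change of 0.27 (SE 0.33, interval -0.50 to 1.04, edgeR adjusted p = 0.893) was -0.20 without Tg-ACE replicate 2. Tfrc (ENSMUSG00000022797.15) lies at chr16:32608920-32632794 on the forward strand.

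The proton-coupled transporters Slc11a2, which moves ferrous iron out of the endosome, and Slc11a1, which does so at the phagosome membrane, were close to level between genotypes. Slc11a2 (ENSMUSG00000023030.16, chr15:100387898-100425072, reverse strand) stood at 54.3, 146.1 and 129.2 CPM in Tg-ACE, against 55.1, 128.2 and 133.3 CPM in WT. Its log2 fold change was 0.04 (SE 0.07, interval -0.12 to 0.21, edgeR adjusted p = 0.924). Slc11a1 (ENSMUSG00000026177.11, chr1:74375195-74386062, forward strand) stood at 481.5, 612.1 and 634.5 CPM in Tg-ACE, against 471.7, 647.2 and 555.02 CPM in WT, a log2 fold change of 0.04 (SE 0.08, interval -0.13 to 0.22, edgeR adjusted p = 0.933). For both genes the libraries of the 2 genotypes were interleaved. These values turned slightly below 0 when 1 library was left out, to -0.022 for Slc11a2 without Tg-ACE replicate 2 and to -0.019 for Slc11a1 without WT replicate 3.

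Hmox1 breaks heme into biliverdin, carbon monoxide and iron. It stood at 244.4, 355.4 and 336.0 CPM in Tg-ACE, against 245.8, 263.9 and 278.0 CPM in WT. Both Exp-156b Tg-ACE libraries were above every WT library, while the Exp-156 libraries nearly coincided. The log2 fold change was 0.23 (SE 0.09, interval 0.03 to 0.44, unadjusted p = 0.0303, edgeR adjusted p = 0.760), with -0.01 in the Exp-156 pair and 0.35 in Exp-156b. The test of that difference between codes gave an interaction of -0.36 (unadjusted p = 0.0299, edgeR adjusted p = 0.659). Hmox1 (ENSMUSG00000005413.7) lies at chr8:75093621-75100589 on the forward strand.

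Slc46a1, a proton-coupled folate transporter first described as a heme carrier, had the largest genotype value of the 10. It stood at 5.61, 9.30 and 11.02 CPM in Tg-ACE, against 4.53, 5.97 and 6.44 CPM in WT, from 111 to 268 counts per library. Within each code every Tg-ACE library was above every WT library, by 0.30 on the log2 scale in Exp-156 and 0.70 in Exp-156b, though the groups overlapped across codes. Such an order within Exp-156b alone held for 22.2% of all tested genes. The log2 fold change was 0.58 (SE 0.15, interval 0.24 to 0.93, unadjusted p = 0.00439, edgeR adjusted p = 0.687). It lies at chr11:78465697-78472059 on the forward strand (ENSMUSG00000020829.9).

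Slc48a1, which carries heme out of the phagolysosome, stood at 135.2, 321.4 and 290.2 CPM in Tg-ACE, against 143.9, 252.3 and 301.9 CPM in WT. The groups were interleaved, and the log2 fold change was 0.07 (SE 0.09, interval -0.15 to 0.28, edgeR adjusted p = 0.912), turning to -0.028 with WT replicate 2 left out and to -0.0037 with Tg-ACE replicate 2 left out. Slc48a1 (ENSMUSG00000081534.2, chr15:97778520-97792692, forward strand) overlaps 29 exonic bases of Hdac7 on the other strand, and whether counting used strand is unstated in these sources.

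Within Exp-156b alone, Tg-ACE stood above WT without overlap, 2 libraries against 2, for Hmox1, Slc40a1, Ftl1, Ncoa4 and Slc46a1, 5 of the 10, and below WT for 0. The same held in that direction for 22.2% of all tested genes, and edgeR on these 4 libraries called 0 of the 10. Over all 6 libraries the interaction of genotype and code called 0 members (0% of all genes in edgeR; 0 members in DESeq2). At an unadjusted p under 0.05 it held 2 members, Hmox1 and Slc40a1 (7.53% of all genes). For Slc40a1 the interaction was -1.10 (SE 0.34, unadjusted p = 0.0171, edgeR adjusted p = 0.659).

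**Figure D2:**
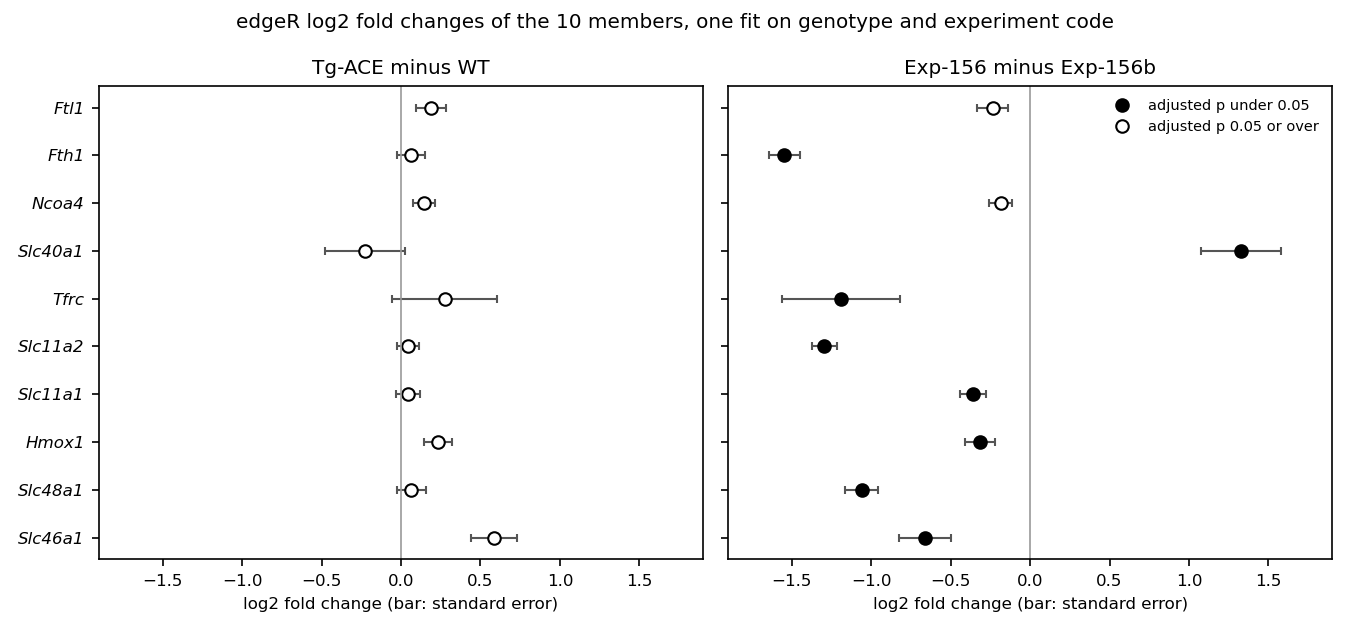
Log2 fold changes (x axis) of the 10 genes from one edgeR fit, Tg-ACE minus WT on the left and Exp-156 minus Exp-156b on the right, with bars of 1 standard error and filled points for adjusted p under 0.05. The genotype panel has 0 filled points and the code panel 8, of which Slc40a1 alone lies above 0.

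Between experiment codes the iron genes differed widely. Exp-156 had less mRNA of Fth1, Slc11a2, Slc48a1, Tfrc, Slc46a1, Slc11a1 and Hmox1 than Exp-156b, and more of Slc40a1. The same edgeR fit called 8 of the 10, 1 higher and 7 lower, where 43.2% of all genes were called, 23.4% higher and 19.8% lower. In 5 of 10 the log2 fold change was 1 or more in size, against 15.7% of all genes. The 2 and 4 libraries did not overlap for any of the 10 genes, which held for 60% of all genes. For Ncoa4, which did not pass, this was nearly a tie, at 482.30 CPM in Tg-ACE replicate 1 against 482.38 CPM in WT replicate 2. The median log2 fold change was -0.51, against 0.01 over all genes. Leaving out Tg-ACE replicate 1 lowered the number called to 4.

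In the fit over all 6 libraries ferritin heavy chain had the largest difference in size, though among WT libraries alone that of Slc40a1 was larger. Fth1 averaged 5652 CPM in Exp-156 (n = 2) and 16500 ± 1041 CPM in Exp-156b (SD, n = 4), with Exp-156b libraries from 15440 to 17704. The log2 fold change, Exp-156 minus Exp-156b, was -1.55 (SE 0.10, edgeR adjusted p = 3.5e-05), a size that 8.03% of all genes reached. Ftl1 averaged 13545 CPM in Exp-156 and 16061 ± 1871 CPM in Exp-156b, a log2 fold change of -0.24 (SE 0.10, edgeR adjusted p = 0.0898) that did not pass, though edgeR called it without WT replicate 1 (-0.39, adjusted p = 0.0497). The ratio of the heavy to the light chain counts within each library, which needs no scaling between libraries, was 0.431 in Tg-ACE and 0.403 in WT of Exp-156. In Exp-156b it was 0.9999 and 0.899 in Tg-ACE and 1.197 and 1.05 in WT. Both genes together took 1.93% to 1.96% of all counts in Exp-156 and 3.06% to 3.43% in Exp-156b. Ncoa4, at 452.5 CPM in Exp-156 and 514.2 ± 35.1 CPM in Exp-156b, did not pass (-0.19, SE 0.07, edgeR adjusted p = 0.0790). DESeq2 did call Ftl1 and Ncoa4 lower in Exp-156 (adjusted p = 0.0224 and 0.0327), while over all alternatives the adjusted p ran from 0.0160 to 0.627 for Ftl1 and from 0.0327 to 0.318 for Ncoa4.

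**Figure D3:**
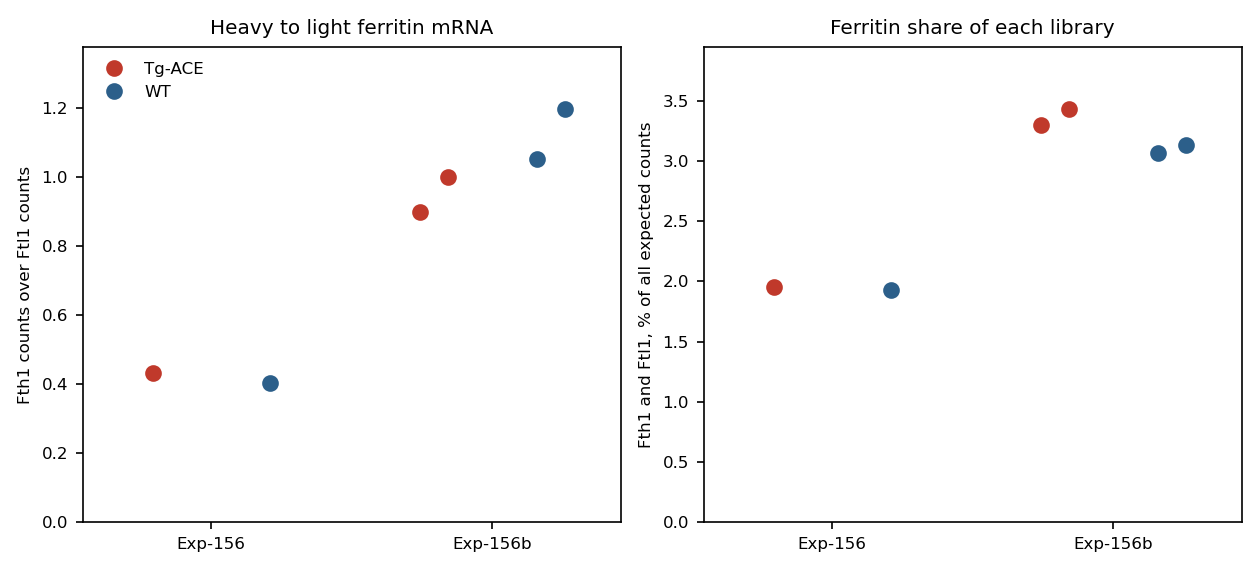
Left, counts of Fth1 divided by counts of Ftl1 in each library (y axis, ratio); right, both genes as a percentage of all expected counts (y axis, %), with Exp-156 left, Exp-156b right, Tg-ACE red and WT blue, 1 point per library. The ratio is 0.403 to 0.431 in Exp-156 and 0.899 to 1.197 in Exp-156b. Within Exp-156b the Tg-ACE libraries, at 0.9999 and 0.899, both lie below the WT libraries, at 1.197 and 1.05.

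The exporter differed in the opposite direction. Slc40a1 averaged 7.78 CPM in Exp-156 and 3.02 ± 0.35 CPM in Exp-156b, 2.58 times as much in Exp-156. The log2 fold change was 1.33 (SE 0.25, edgeR adjusted p = 0.00437). Between codes it was 0.73 within Tg-ACE and 1.83 within WT, and the call was lost without WT replicate 1 (0.75, adjusted p = 0.0799 in edgeR) and among Tg-ACE libraries alone (adjusted p = 0.0894).

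Among the importers, Slc11a2 averaged 54.7 CPM in Exp-156 and 134.2 ± 8.23 CPM in Exp-156b. Its log2 fold change of -1.29 (SE 0.08, edgeR adjusted p = 2.9e-05) was -1.34 within Tg-ACE and -1.25 within WT. Slc11a1, the phagosomal relative, differed less, at 476.6 CPM in Exp-156 and 612.2 ± 40.8 CPM in Exp-156b (-0.36, SE 0.08, edgeR adjusted p = 0.0101), and lost the call without WT replicate 1 (adjusted p = 0.0662 in edgeR) or Tg-ACE replicate 1 (0.0764). Tfrc averaged 81.5 CPM in Exp-156 and 187.4 ± 86.6 CPM in Exp-156b (-1.19, SE 0.37, edgeR adjusted p = 0.0341). Its call was lost in DESeq2 (adjusted p = 0.0761) and in edgeR leaving out WT replicate 1, WT replicate 3 or Tg-ACE replicate 1 (adjusted p = 0.154, 0.0754 and 0.220).

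Among the heme genes, Slc48a1 averaged 139.6 CPM in Exp-156 and 291.5 ± 29.1 CPM in Exp-156b, a log2 fold change of -1.06 (SE 0.10, edgeR adjusted p = 2.2e-04). Slc46a1 averaged 5.07 CPM in Exp-156 and 8.18 ± 2.39 CPM in Exp-156b (-0.66, SE 0.16, edgeR adjusted p = 0.0128), a call lost without Tg-ACE replicate 1 (-0.45, adjusted p = 0.154) and with code as the only term (0.0639). Hmox1 averaged 245.1 CPM in Exp-156 and 308.3 ± 44.3 CPM in Exp-156b (-0.32, SE 0.09, edgeR adjusted p = 0.0283). Leaving out any library but WT replicates 1 and 2 ended the Hmox1 call, with edgeR adjusted p of 0.0504 without WT replicate 3 and, leaving out Tg-ACE replicates 1 to 3, 0.293 (log2 fold change -0.14), 0.0682 and 0.0575, and so did a fit on code alone (0.0564). Fth1, Slc11a2 and Slc48a1 passed under each of the 13 alternatives tried for this comparison.

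No tested marker of the 11 cell types was called between genotypes, beside 0.0151% of all genes. In Exp-156, however, the eosinophil markers summed to 87.9 CPM in Tg-ACE and 221.6 CPM in WT. Both tested, Ccr3 and Siglecf, had log2 fold changes below 0, at -1.35 (edgeR unadjusted p = 1.3e-04, adjusted p = 0.185) and -0.48 (unadjusted p = 0.174). Ccr3 was at most 0.356 CPM in Exp-156b. The part of this in the genotype results was not tested. The codes also differed in markers of cell identity, whose part in these results was not tested. The counts below stand beside 23.4% of all tested genes called higher and 19.8% called lower in Exp-156. Of 7 macrophage markers, 4 (Adgre1, Csf1r, Itgam and Fcgr1) were called higher in Exp-156, while the list summed to 21264 to 21386 CPM in Exp-156 and 17980 to 21941 CPM in Exp-156b, carried by Lyz2 and Cd68. All 3 monocyte markers were called higher, summing to 235.3 to 298.2 CPM in Exp-156 and 5.99 to 9.92 CPM in Exp-156b, with the recruitment receptor Ccr2 at 175.4 to 191.8 CPM and 1.32 to 6.15 CPM. Of 5 large peritoneal macrophage markers 4 were higher and Gata6 lower, with sums of 112.3 to 192.6 CPM in Exp-156 and 20.0 to 25.3 CPM in Exp-156b. In Exp-156 the largest part was Alox15, at 61.1 CPM in Tg-ACE and 149.1 CPM in WT. Eosinophil markers summed to 87.9 to 221.6 CPM in Exp-156 and 8.67 to 18.4 CPM in Exp-156b (2 of 2 tested of 4 higher, with the granule gene Epx at most 0.140 CPM). Mast cell markers (4 of 4 higher) summed to 43.2 to 67.7 CPM and 8.57 to 17.1 CPM, and dendritic cell markers (3 of 4) to 25.004 to 27.9 CPM and 4.51 to 9.13 CPM. T and NK cell markers (4 of 5) summed to 5.40 to 6.97 CPM in Exp-156 and 0.70 to 2.31 CPM in Exp-156b. Neutrophil markers (1 of 3 tested of 6) summed to 19.8 to 36.4 CPM and 10.4 to 12.7 CPM, and B cell markers (0 of 4) to 88.9 to 114.0 CPM and 50.6 to 115.8 CPM. Mesothelial and fibroblast markers went the other way, 5 of 6 lower, with sums of 151.9 to 171.5 CPM in Exp-156 and 233.9 to 481.5 CPM in Exp-156b.

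Erythroid RNA, which could bring iron genes of its own, was nearly absent. The 9 erythroid markers in the table summed to 0.245 to 2.38 CPM in Exp-156 and 0.284 to 0.411 CPM in Exp-156b, none was high enough to test, and Slc4a1 was at 0 in every library.

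The wider iron and heme network was read through 8 lists of 103 genes, of which 88 were tested. Between genotypes edgeR called 0 of the 88, beside 0.0151% of all genes, and 7 had an unadjusted p under 0.05, beside 6.49% of all genes. The smallest belonged to Alas1, which makes the first intermediate of heme synthesis and stood at 140.0, 309.9 and 286.0 CPM in Tg-ACE, against 116.3, 171.8 and 173.8 CPM in WT. Within each code all Tg-ACE libraries were above the WT libraries, and the log2 fold change was 0.62 (SE 0.11, unadjusted p = 5.4e-04, edgeR adjusted p = 0.339). Within Exp-156b alone that order held for 22.2% of all tested genes, and the share with it in both codes was not counted. Alas1 was named for its small p, so the order adds no separate evidence. DESeq2 called Alas1 alone among the 88 (adjusted p = 2.5e-04), and over all alternatives its adjusted p ran from 2.5e-04 to 0.9998. The ferrireductase Steap3 (0.29, unadjusted p = 0.0177), the RNA-binding protein gene Pcbp4 (0.51, 0.0117), the reductase Por, which supplies electrons to heme oxygenase (0.18, 0.0312), and the hypoxia factor Epas1 (0.31, 0.0377) had the smallest p of their lists. So did the iron regulatory protein gene Ireb2 (-0.22, 0.0807), the cysteine desulfurase Nfs1 (0.12, 0.156) and the cystine transporter Slc7a11 (-0.28, 0.128), and none of these passed in edgeR.

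Between codes 47 of the 88 listed genes were called, which is 53.4% beside 43.2% of all genes. Of these, 10 were higher and 37 lower in Exp-156, where 23.4% of all genes were called higher and 19.8% lower. The counts by direction for each list below stand beside the same shares. By list, the share called was 75% for iron sensing, 58.3% for uptake and redox, 33.3% for chaperones and ferritin partners, 46.2% for heme synthesis and 63.6% for heme capture, movement and breakdown. It was 44.4% for mitochondrial iron and iron-sulfur genes, 35.7% for transcription factors and 90% for NRF2 targets. The shares for heme synthesis and for mitochondrial iron and iron-sulfur genes were near that of all genes. Iron sensing had 4 tested members, of which 3 were higher: the iron regulatory protein Aco1 (115.3 and 105.0 CPM in Exp-156, 80.6 to 89.2 CPM in Exp-156b, log2 fold change 0.39, edgeR adjusted p = 0.00220), the iron-sensing ubiquitin ligase subunit Fbxl5 (0.64) and Hfe (0.48, lost without WT replicate 1 at adjusted p = 0.0524). The hepcidin genes Hamp and Hamp2 stood at or below 0.0816 CPM. Iron uptake and redox genes had 7 of 12 lower and 0 higher, including the lysosomal iron channel Mcoln1 (-0.42) and the metalloreductases Steap2 (-1.88) and Steap1 (-1.95, lost without WT replicate 1 at 0.0561). The reductases were low, Steap1 at most 2.84 CPM and Steap2 at most 3.74 CPM. Of 6 tested chaperones and ferritin partners 2 were lower, the iron chaperone Pcbp1 (-0.27) and Pcbp4 (-0.85), and edgeR lost both without Tg-ACE replicate 1 (adjusted p = 0.128 and 0.0760).

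Heme synthesis had 5 of 13 lower and 1 higher. Alas1 was at 140.0 and 116.3 CPM in Exp-156, against 171.8 to 309.9 CPM in Exp-156b (-0.82, edgeR adjusted p = 0.00131), and the transporter Abcb6 (-0.63) and the synthesis enzyme Alad (-0.53, lost without Tg-ACE replicate 1 at 0.0709) were also lower, while Uros was higher (0.57, lost without WT replicate 1 at 0.0667). Heme capture, movement and breakdown had 4 of 11 lower and 3 higher, and held the widest difference of any listed iron gene. Cd163, the macrophage receptor for hemoglobin bound to haptoglobin, stood at 15.7 and 19.1 CPM in Exp-156, against 0.288 to 0.639 CPM in Exp-156b, a log2 fold change of 5.15 (SE 0.21, edgeR adjusted p = 5.6e-06). Haptoglobin itself, Hp, was higher in Exp-156 (1.03, lost without replicate 1 of either genotype, at 0.120 for Tg-ACE and 0.121 for WT), as was the heme-binding glycolytic enzyme Gapdh (0.72). Por (-0.71), the biliverdin reductase Blvrb (-0.59) and the porphyrin exporter Abcg2 (-0.52, lost without WT replicate 1 at 0.133) were lower.

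Mitochondrial iron and iron-sulfur genes had 7 of 18 lower and 1 higher. The chaperone Hspa9 was at 196.4 and 171.6 CPM in Exp-156, against 390.3 to 402.8 CPM in Exp-156b (-1.11, SE 0.07, edgeR adjusted p = 4.2e-05), with the ferredoxin Fdx1 (-0.83) and the cluster assembly gene Bola3 (-0.72) below it in size. Ferredoxin reductase, Fdxr, was higher (0.77), and this call was lost without WT replicate 1, WT replicate 3 or Tg-ACE replicate 1 (edgeR adjusted p = 0.270, 0.0637 and 0.0596). Of 14 transcription factors 2 were higher, Nr1h3 (0.40) and Nfe2l2, which encodes NRF2 (317.2 and 287.7 CPM in Exp-156, 200.9 to 242.9 CPM in Exp-156b, 0.43, lost without Tg-ACE replicate 1 at 0.0797). The small MAF partners Mafk (-0.33) and Maff (-0.91) were lower, both lost without Tg-ACE replicate 1 (0.0766 and 0.0944). Epas1 was lower (-0.44), a call lost when WT replicate 1 or 3 was left out (edgeR adjusted p = 0.239 and 0.0599), and when Tg-ACE replicate 1 or 2 was (0.103 and 0.0736).

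NRF2 target genes, which share a regulator with Hmox1, Fth1 and Ftl1, had 9 of 10 called lower in Exp-156, beside 19.8% of all genes. Their median log2 fold change was -1.08, against 0.01 over all genes. The sulfiredoxin Srxn1 stood at 67.9 and 71.7 CPM in Exp-156, against 200.6 to 256.0 CPM in Exp-156b (-1.68, SE 0.11, edgeR adjusted p = 3.1e-05), thioredoxin reductase Txnrd1 at 116.4 and 122.9 CPM in Exp-156, against 268.0 to 304.0 CPM in Exp-156b (-1.27), and the glutathione synthesis gene Gclc at 25.9 and 26.2 CPM in Exp-156, against 40.6 to 49.6 CPM in Exp-156b (-0.81). Gsr was the member not called (0.01). Hmox1, at -0.32, differed less than any of the 9 that were called, and the mRNA of NRF2 itself was on the other side of 0. The activity of NRF2 was not measured, and its part in the difference between codes was not tested.

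**Figure D4:**
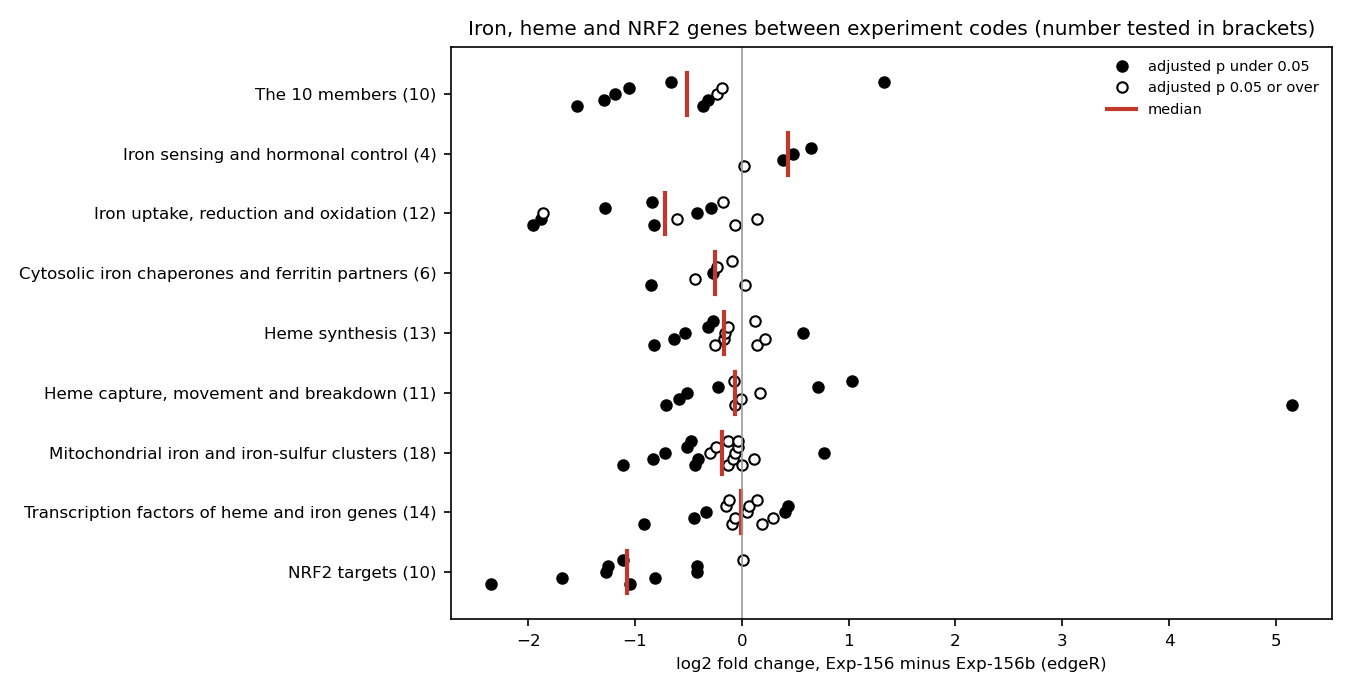
Log2 fold change, Exp-156 minus Exp-156b (x axis, edgeR), for the 10 genes and the tested members of 8 lists (rows, number tested in brackets), filled where adjusted p is under 0.05, with a red line at each row's median. Medians run from -1.08 for NRF2 targets to 0.43 for iron sensing, and the point at 5.15 is Cd163.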

How the data were processed

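The values are expected counts by gene, unnormalized, as the authors deposited them in a single table. The submitters' processing notes name STAR 2.5.0 and RSEM 1.2.25, and as builds both mm10 and GRCh38, without their roles. Libraries were stranded, poly-A selected and read as single 75-base reads, per the labels' protocols. The table held 25509 genes and 92 spike-in rows, which summed to 1 count and were left out, and 0 columns of other samples. Between 11.0% and 11.4% of values per library were not whole, judged on the deposited decimals with a tolerance of 0, and all were rounded.

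Groups came from sample titles and codes from descriptions. The fit used edgeR 4.0.16 (R 4.3.3), TMM scaling, filterByExpr (13256 genes kept), the quasi-likelihood test and genotype plus code as terms; DESeq2 1.42.0 was an alternative. Library sizes behind CPM are TMM-scaled; values within a code are log2 CPM with a prior count of 2. SE is the log2 fold change over the square root of F. Simulated data with known changes were used to check the fit. No libraries were identical, and every pair differed beyond sampling noise.

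Deviations from group means correlated at 0.871, 0.533 and 0.667 between same-numbered libraries, above 0.1 in all 3 pairs. The replicate number was tried as a block in an alternative fit only, and the main fit held genotype and code. Crossed pairs of replicates 2 and 3 gave 0.638 and 0.567. After removal of genotype and code, same-numbered libraries 2 and 3 correlated at -0.158 and -0.0894, and crossed pairs at -0.117 and -0.160. What the fit leaves must sum to 0 within each code and genotype, which pulls such values below 0. Only the comparison with the crossed pairs is informative, and same-numbered pairs did not stand apart from them. The likeness of same-numbered libraries thus follows the code already in the fit.

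The 10 genes, the lists and the rule for named genes (all 10, and the smallest p and up to 3 called per direction in each list) were chosen with earlier results of these data known. Gene positions and transcript sequences are from GENCODE vM21 (GRCm38), an identifier match that ignores version numbers. Listed genes Hjv, Tf, Flvcr1, Flvcr2 and Ahsp were not analysed here.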

Additional observations from a re-analysis of the deposited data

Results flagged for a closer look

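Slc40a1 in WT replicate 3, at 2.51 CPM from 63 counts, lay apart from the other 3 libraries of Exp-156b, which stood at 3.19 and 3.25 CPM in Tg-ACE and 3.13 CPM in WT. Its gap to the nearest of them was 0.839 of the range of the 4, above the 95% critical value of Dixon's test. It was the one flag among 10 genes tested, and chance flags about 1 in 20 such groups.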

How the results depend on the processing

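The count of 0 members called between genotypes held under each of the 13 alternatives, the replicate block included, which called 0 of the 10 genes and 2 genes in all and changed no call. The 2 genes called in all became 9 with no filter on low counts, 37 in DESeq2 and 0 with genotype alone, and DESeq2 called 1 listed iron gene higher and 13 genes for the interaction over all genes. Slc40a1 between genotypes was 0.19 in an edgeR fit on Exp-156b alone, which reads the same libraries as the fits without either replicate 1 and adds no separate evidence. Leaving out 1 library at a time gave genotype values of -0.41 to 0.19 for Slc40a1, -0.028 to 0.14 for Slc48a1, -0.019 to 0.11 for Slc11a1, -0.022 to 0.090 for Slc11a2 and -0.20 to 0.56 for Tfrc. It gave 0 to 4 members whose genotype groups did not overlap, 4 without Tg-ACE replicate 1 (26% of all genes) and 1 without WT replicate 1 (22.1% of all genes). Between codes, it gave 4 to 8 of the 10 genes, 3553 to 5260 genes in all against 5732, 6 to 10 listed genes higher and 23 to 35 lower. Tg-ACE libraries alone called 3464 genes and 6 listed genes higher. WT libraries alone called 4 of the 10 genes, 3370 genes and 19 listed genes lower. Fits that leave 1 Exp-156 library assume that it varies like the rest, and they hold fewer samples. Levels of Slc40a1 and Slc46a1 rest on at most 268 counts per library.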

Other observations

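Over the 6 libraries, the genes at 5 CPM or more whose centred log2 CPM lay nearest to that of Hmox1, among 9739 compared, were Fam173a, Abhd8 and Commd9, with root-mean-square differences of 0.03, 0.05 and 0.05. Those nearest to Slc40a1, among 9740, were Nbeal2, Rin3 and Rbm38, at 0.12, 0.13 and 0.13. The libraries share the experiment codes, which set most of these profiles, so the likeness is a description.

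Counts of Slc11a2 divided by counts of Slc11a1, within each library, were 0.113 in Tg-ACE and 0.117 in WT of Exp-156, and in Exp-156b 0.239 and 0.204 in Tg-ACE and 0.198 and 0.240 in WT. Tfrc counts per 1000 ferritin counts were 4.42 in Tg-ACE and 4.08 in WT of Exp-156. In Exp-156b they were 8.41 and 3.62 in Tg-ACE and 3.70 and 7.13 in WT, so the ratio separated libraries within Exp-156b and not the codes.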
